A study of Mus musculus with 6 samples.

Results

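The Dusp and Sprouty genes that restrain MAP kinase signaling were followed in cultured mouse cerebellar granule cells (GCs) after knockdown (KD) of the m6A reader YTHDF2. The members were the 10 genes Dusp1, Dusp2, Dusp4, Dusp5, Dusp6, Dusp8, Dusp10, Dusp14, Spry2 and Spry4, found by symbol among the 53421 genes of the count table, and all 10 passed the filter on low counts and were tested. C57BL/6 GCs, labelled postnatal day 8, received lentivirus with a hairpin targeting Ythdf2 (shYthdf2, 3 libraries) or with a control one (shCtrl, 3 libraries), and puromycin selection followed, so that both groups carried a virus and went through selection. Only 1 of the hairpins against Ythdf2 appears to have been used for these libraries, an inference from the shared prefix of their names. In each group the replicate numbers are 1, 2 and 4, the study's methods call them biological replicates, and no source used here says which cultures they came from.

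MAP kinases carry signals from growth factor receptors, calcium entry and stress to the nucleus, and each is switched on by a double phosphorylation. Dual-specificity phosphatases (Dusp) remove both phosphates again, and Sprouty proteins act further upstream, between the receptor and Ras. Many of these genes are themselves induced by ERK, the MAP kinase downstream of Ras, so the proteins form a negative feedback and their mRNAs are widely read as a record of recent ERK activity. In neurons several of them are induced by electrical activity together with the immediate-early genes. YTHDF2 binds mRNAs that carry m6A and is known for speeding their decay.

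The titles and genotype labels of the samples contradict the names of the libraries about which 3 are the knockdown, and the names were followed here. If the titles were right, every direction below would be inverted. With the names, both group means in the study's supporting table were matched to within 0.1% by the counts for 923 of 923 genes, and with the groups exchanged for 0. Ythdf2 itself stood at 500, 401 and 500 normalized counts in shYthdf2 (replicates 1, 2 and 4) against 617, 839 and 627 in shCtrl. The groups did not overlap (p = 0.1 by an exact two-sided permutation test, which with 3 against 3 can go no lower), and 67.3% of the shCtrl level remained. The log2 fold change was -0.57 (SE 0.16), with a Benjamini-Hochberg adjusted p = 0.125 by the edgeR quasi-likelihood test, and the paralogs Ythdf1 and Ythdf3 had -0.27 (SE 0.11, adjusted p = 0.214) and 0.15 (SE 0.10, adjusted p = 0.442).

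The libraries held 17246821 to 21546595 counts. Replicates 1 and 4 of a group resembled each other far more than either resembled replicate 2. The chi-square between replicates 1 and 4, divided by its degrees of freedom, was 3.34 in shYthdf2 and 4.64 in shCtrl (above counting noise), and between replicate 2 and either of them it was 32.9 to 54.8. Between the replicate 2 libraries of opposite groups it was 22.1. Markers of GCs were abundant, with 10 genes summing to 149753 to 154557 normalized counts in shYthdf2 and 154461 to 174122 in shCtrl. Other cells were present. The 9 oligodendrocyte lineage markers summed to 15618 to 20493 in shYthdf2 and to 5975, 20641 and 5728 in shCtrl replicates 1, 2 and 4, and the 8 microglia markers to 478 to 1446 against 250, 977 and 230. The 8 markers of astrocytes and Bergmann glia summed to 10165 to 10528 against 7963 to 12476, the 12 vascular and fibroblast markers, of which Cldn5 was near 0, to 4320 to 11054 against 3138 to 8882, the 6 Purkinje cell markers to 707 to 1016 against 855 to 935 and the 5 unipolar brush cell markers to 5511 to 6757 against 5522 to 6566. The sum of the 6 GABAergic interneuron markers was higher in every shYthdf2 library (7583 to 9215 against 6351 to 6980), and the sum of the 8 progenitor markers, most of whose counts were Barhl1, was lower (6823 to 6956 against 8788 to 11359), although 5 of the 6 progenitor markers tested had a positive fold change. The unipolar brush cell and astrocyte sums also held genes that went opposite ways. Of the unipolar brush cell markers, 4 had a negative log2 fold change, with Eomes at -1.80 (adjusted p = 0.0502 in edgeR's test). The 1 positive value was that of Calb2 at 0.61 (adjusted p = 0.272). Of the astrocyte markers, 2 were negative, with Slc1a2 at -1.44 (adjusted p = 0.0552), and 6 positive, with Aqp4 at 0.87 (adjusted p = 0.173). These differences move with the groups and with replicate 2, and their part in the results below was not tested. In such bulk libraries, fewer cells of a type and less RNA per cell cannot be told apart.

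Most of the members had lower levels after YTHDF2 KD, with the largest differences for Dusp5, Dusp4 and Dusp1, none of which passed the adjusted test. The fitted log2 fold change was negative for 9 of 10 members, against 49.2% of all 17214 genes tested, and the median over the members was -0.52, against 0.01 over all genes. An adjusted p under 0.05 was reached by 0 of the 10 members in edgeR's test. Over all genes, 104 passed (0.604%), of which 62 were lower in shYthdf2 (0.360% of genes tested). At an unadjusted p under 0.05 there were 6 members, Dusp1, Dusp4, Dusp5, Dusp8, Spry2 and Spry4, all lower, where 10.6% of all genes were lower and 9.50% higher at the same level. The groups did not overlap for 6 members, all lower, which were Dusp1, Dusp5, Dusp8, Dusp10, Spry2 and Spry4, against 13.4% of all genes. DESeq2 gave an adjusted p under 0.05 to 4 members, Dusp1, Dusp4, Dusp5 and Spry2 (5.01% of genes were called lower by it). EdgeR without a filter gave it to 3, Dusp1, Dusp4 and Dusp5. The share of all genes called lower was then 1.23% of 32277, a set that includes genes with few counts.

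**Figure D1:**
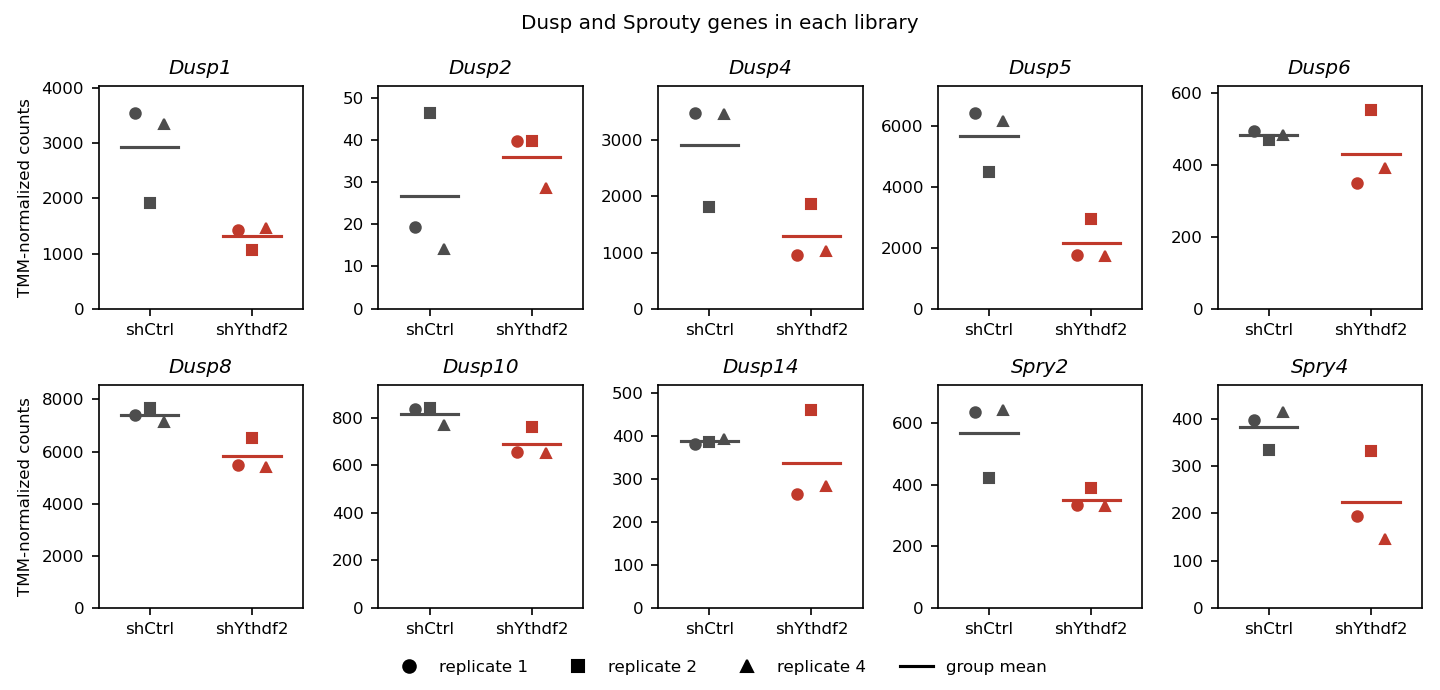
TMM-normalized counts of the 10 genes in each library, with a separate linear scale from 0 for each gene, symbols for the replicate number and a line for the mean of 3 libraries. Dusp1, Dusp4 and Dusp5 are far lower in shYthdf2 replicates 1 and 4 than in the shCtrl libraries of the same numbers, and the replicate 2 libraries (squares) lie closer together, at 1861 and 1816 for Dusp4.

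The size of the difference depended on the replicate number. Between the libraries of replicate 1, 4 members were at least 2-fold lower in shYthdf2 (4.11% of all genes were), namely Dusp1, Dusp4, Dusp5 and Spry4. Between those of replicate 4, the 4 members were again these (4.10% of all genes). Between the replicate 2 libraries it was 0 members (2.96% of all genes). Ythdf2 itself differed most between the replicate 2 libraries, by -1.06 on the log2 scale, against -0.30 for replicate 1 and -0.33 for replicate 4. The median log2 difference of the members was -0.73 for replicate 1, -0.71 for replicate 4 and -0.13 for replicate 2. Dusp1, Dusp5, Dusp8, Dusp10, Spry2 and Spry4 were lower in shYthdf2 in each of the 3 same-numbered pairs, 6 of 10 members, against 26.9% of all genes. They are the 6 members whose groups did not overlap, for which every pair is lower by definition. With the replicate number as a block, 1 member passed the adjusted threshold, Dusp1 (adjusted p = 0.0445 in edgeR's test). In that fit 0.819% of all genes were called lower. Whether the libraries numbered 1 or 4 are true pairs across the groups was not tested.

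**Figure D2:**
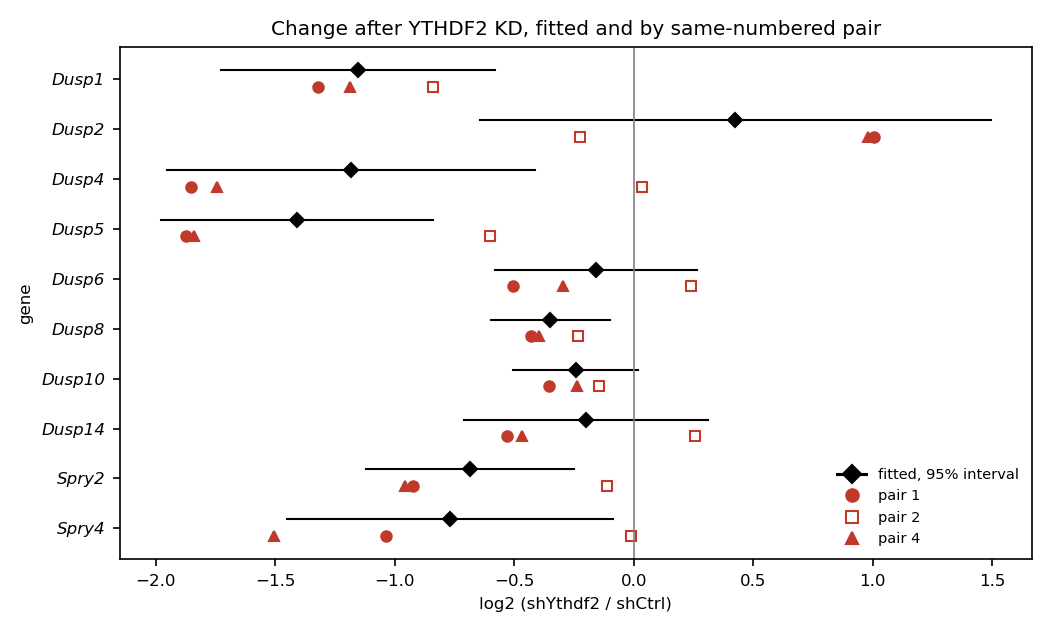
Log2 ratio of shYthdf2 to shCtrl for each of the 10 genes. Black diamonds with lines are the fitted log2 fold changes with 95% intervals over 6 libraries, and red symbols are the differences between libraries with the same replicate number. Pair 2 (open squares) lies nearest to 0 for each gene, and for Dusp5 it is at -0.60 against -1.87 and -1.84.

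The nuclear, inducible phosphatases Dusp1, Dusp2, Dusp4 and Dusp5 held both the largest decreases in level and the single member that was higher. Dusp5, which is selective for ERK and is a textbook ERK-induced gene, measured 1752, 2948 and 1720 normalized counts in shYthdf2 (replicates 1, 2 and 4) against 6411, 4476 and 6156 in shCtrl. Every shYthdf2 library lay below every shCtrl library, and the highest of the first and the lowest of the second were both replicate 2. Mean levels were 2140 ± 700 (SD, n = 3) and 5681 ± 1051 (SD, n = 3), with 37.7% remaining (two-sided exact permutation test, p = 0.1). The log2 fold change was -1.41 (SE 0.24), the most negative among the members, and the adjusted p of 0.0552 in edgeR's test was the closest of the 10 to the threshold. It was 0.0252 without shYthdf2 replicate 2, 0.00910 without shCtrl replicate 2 and 0.241 to 0.286 without any one of the other libraries. Dusp5 (ENSMUSG00000034765) lies on chromosome 19 of GRCm38 from 53529109 to 53542431. An antisense gene, AC137853.2, overlaps its exons, and the deposited counts have no entry for that gene.

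Dusp1 acts on ERK, JNK and p38 and is an immediate-early gene. It had 1421, 1067 and 1468 normalized counts in shYthdf2 replicates 1, 2 and 4 and 3547, 1907 and 3341 in shCtrl. The groups did not overlap, and here replicate 2 was the lowest library of both groups. Mean levels were 1319 ± 220 (SD, n = 3) and 2932 ± 893 (SD, n = 3), with 45.0% remaining. The log2 fold change was -1.15 (SE 0.24, adjusted p = 0.0740 in edgeR's test), and the pairs of replicates 1, 2 and 4 differed by -1.32, -0.84 and -1.19, so Dusp1 was the member whose replicate 2 pair differed most. The adjusted p was 0.00288 without shCtrl replicate 2, 0.0865 without shYthdf2 replicate 2 and 0.267 to 0.303 without any one of the other libraries. Dusp1 (ENSMUSG00000024190) is annotated on chromosome 17 from 26505590 to 26562128, a span of 56539 bases that shares exonic bases with Ergic1 on the other strand. The labels and the study's methods name different library kits, neither of which marks strand. Ergic1 had 2127 ± 191 (SD, n = 3) normalized counts in shYthdf2 and 2901 ± 159 (SD, n = 3) in shCtrl (log2 fold change -0.45, SE 0.10, adjusted p = 0.0854 in edgeR's test), a smaller difference than that of Dusp1, and how many reads the pair shares was not tested.

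Dusp4, a phosphatase of ERK and JNK in the nucleus, showed the widest disagreement between replicates. Its normalized counts for replicates 1, 2 and 4 were 965, 1861 and 1034 in shYthdf2 against 3481, 1816 and 3467 in shCtrl. In replicates 1 and 4 the shCtrl level was 3.61 and 3.35 times the shYthdf2 level, and in replicate 2 it was 0.976 times, so the groups overlapped. Mean levels were 1286 ± 498 (SD, n = 3) and 2921 ± 957 (SD, n = 3). The log2 fold change was -1.18 (SE 0.33, adjusted p = 0.119 in edgeR's test), and it was -1.43 (adjusted p = 0.0184) without shCtrl replicate 2 and -1.55 (adjusted p = 0.0497) without shYthdf2 replicate 2. Without any one of the other libraries the adjusted p was 0.352 to 0.394. Dusp4 (ENSMUSG00000031530) lies on chromosome 8 from 34807297 to 34819894.

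Dusp2, best known from activated immune cells, was the least abundant member. It had 39.6, 39.6 and 28.6 normalized counts in shYthdf2 and 19.5, 46.4 and 14.2 in shCtrl, and the groups overlapped. Its log2 fold change was 0.42 (SE 0.46, 95% interval -0.64 to 1.49, adjusted p = 0.648 in edgeR's test). Dusp2 (ENSMUSG00000027368) lies on chromosome 2 from 127336159 to 127338376. With at most 48 counts in a library, the interval is wide, and it holds a 2-fold higher level but not a 2-fold lower one. It was the only member with a positive fold change, under each of the 14 alternatives too, where the value ran from 0.13 without shCtrl replicate 4 to 1.08 without shCtrl replicate 2, with 0.23 without shCtrl replicate 1.

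Promoter windows of 300 bases, from 250 before to 50 after the start, were read from RefSeq (GRCm38.p6), where 8 of the 10 members matched, all but Dusp4 and Spry4. They were searched on both strands for the cAMP response element TGACGTCA, its half-site TGACG, which every full element contains, the CArG box bound by serum response factor, the AP-1 sites TGACTCA and TGAGTCA, the Egr sites GCGTGGGCG and GCGGGGGCG, and TATAAA. The full element stood in 2 of the 8 windows, Dusp1 and Dusp8, against 1.79% of all 32851 promoters, and the half-site in 4, those of Dusp1, Dusp2, Dusp5 and Dusp8, against 20.8%. The CArG box stood in 1, Dusp5, against 1.63%, and an Egr site in 1, Dusp2, against 3.47%. AP-1 sites and TATAAA stood in 0 of the 8, against 5.20% and 13.6%. Among the 14611 promoters of genes tested here, the shares were 2.90% for the full element, 29.4% for the half-site, 1.36% for the CArG box, 6.43% for the Egr sites, 3.63% for AP-1 sites and 7.26% for TATAAA. The windows of Dusp6, Dusp10, Dusp14 and Spry2 held none of these letters. Matches are descriptions of the sequence, and binding was not measured.

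The windows with a full element or a CArG box are shown because they belong to a member far lower after KD with both replicate numbers 1 and 4 (Dusp5), to a member lower in all pairs (Dusp1) and to the most highly expressed JNK and p38 phosphatase (Dusp8). Capitals mark the response element, its half-sites and the CArG box.
Dusp1, chr17:26508423-26508722, minus strand: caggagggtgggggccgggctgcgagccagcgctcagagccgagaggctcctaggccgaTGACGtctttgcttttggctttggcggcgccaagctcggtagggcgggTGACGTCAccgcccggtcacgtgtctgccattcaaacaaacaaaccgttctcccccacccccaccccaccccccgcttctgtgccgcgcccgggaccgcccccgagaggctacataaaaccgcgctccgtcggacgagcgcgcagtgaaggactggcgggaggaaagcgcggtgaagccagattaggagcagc
Dusp5, chr19:53528895-53529194, plus strand: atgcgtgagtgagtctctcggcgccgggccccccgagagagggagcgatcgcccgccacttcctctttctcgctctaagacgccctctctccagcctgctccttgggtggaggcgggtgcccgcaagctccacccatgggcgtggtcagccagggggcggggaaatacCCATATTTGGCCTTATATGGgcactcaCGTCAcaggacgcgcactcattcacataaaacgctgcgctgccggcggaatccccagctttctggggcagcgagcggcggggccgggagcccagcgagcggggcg
Dusp8, chr7:142095235-142095534, minus strand: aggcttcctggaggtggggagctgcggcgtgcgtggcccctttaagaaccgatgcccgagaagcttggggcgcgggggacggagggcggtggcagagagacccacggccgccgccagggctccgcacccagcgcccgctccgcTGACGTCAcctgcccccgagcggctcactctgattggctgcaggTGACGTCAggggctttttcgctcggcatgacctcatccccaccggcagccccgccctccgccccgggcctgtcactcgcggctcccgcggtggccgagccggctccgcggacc
In Dusp1 the element starts at position -143 from the transcription start and a separate half-site at -191, in Dusp5 a pair of CArG boxes directly abut each other at -82 and -72 with a half-site at -55 on the opposite strand (read here as CGTCA), and in Dusp8 the elements start at -107 and -63.

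Dusp6, the cytoplasmic phosphatase that is selective for ERK, overlapped between the groups. It had 349, 553 and 393 normalized counts in shYthdf2 and 495, 469 and 482 in shCtrl, and shYthdf2 replicate 2 was above all shCtrl libraries. The log2 fold change was -0.16 (SE 0.18, 95% interval -0.58 to 0.27, adjusted p = 0.669 in edgeR's test). It was -0.027 without shYthdf2 replicate 1, -0.093 without shYthdf2 replicate 4 and -0.38 (adjusted p = 0.104) without shYthdf2 replicate 2. Mean levels were 432 ± 107 in shYthdf2 and 482 ± 13.4 in shCtrl (SD, n = 3), and nearly all of the spread was within the shYthdf2 group. Dusp6 (ENSMUSG00000019960) lies on chromosome 10 from 99263231 to 99267489.

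Dusp8 and Dusp10 act on JNK and p38 rather than on ERK. Dusp8, a phosphatase of brain and heart, had 5503, 6511 and 5422 normalized counts in shYthdf2 and 7418, 7657 and 7145 in shCtrl, without overlap. The difference was small and even, with means of 5812 ± 606 (SD, n = 3) and 7407 ± 256 (SD, n = 3) and 78.5% remaining. The log2 fold change of Dusp8 was -0.35 (SE 0.11, adjusted p = 0.140 in edgeR's test). The adjusted p was 0.0470 without shYthdf2 replicate 2, 0.0758 without shCtrl replicate 2 and 0.370 to 0.459 without any one of the other libraries. Dusp10 had 655, 762 and 651 against 838, 842 and 768, where the highest shYthdf2 and the lowest shCtrl library were nearly level. Its log2 fold change was -0.24 (SE 0.11, 95% interval -0.50 to 0.02, adjusted p = 0.277 in edgeR's test). The exons of Gm32786, which overlap those of Dusp8 on the opposite strand, gathered no more than 14 counts in any library, against at least 5122 for Dusp8, and 1700056E22Rik, opposite to Dusp10 without shared exonic bases, no more than 19. Dusp8 (ENSMUSG00000037887) lies on chromosome 7 from 142079490 to 142095843 and Dusp10 (ENSMUSG00000039384) on chromosome 1 from 184013302 to 184075636.

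Dusp14 is a small atypical phosphatase without the docking domain of the classical family. It had 265, 461 and 285 normalized counts in shYthdf2 and 382, 386 and 393 in shCtrl. As for Dusp6, the shCtrl libraries were nearly level and shYthdf2 replicate 2 stood above them. The log2 fold change was -0.20 (SE 0.22, 95% interval -0.71 to 0.31, adjusted p = 0.653 in edgeR's test). It was -0.053 without shYthdf2 replicate 1, -0.091 without shYthdf2 replicate 4 and -0.50 (adjusted p = 0.0656) without shYthdf2 replicate 2. Dusp14 (ENSMUSG00000018648) lies on chromosome 11 from 84048041 to 84069261.

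The Sprouty genes were both lower in shYthdf2. Spry2, the most widely expressed Sprouty, had 335, 390 and 330 normalized counts in shYthdf2 replicates 1, 2 and 4 and 635, 421 and 641 in shCtrl. The groups did not overlap, though the replicate 2 libraries came close to each other. Mean levels were 352 ± 33.1 (SD, n = 3) and 566 ± 125 (SD, n = 3), with 62.1% remaining. The log2 fold change was -0.69 (SE 0.19), with an adjusted p = 0.115 in edgeR's test. The adjusted p was 0.00617 without shCtrl replicate 2, 0.0893 without shYthdf2 replicate 2 and 0.369 to 0.389 without any one of the other libraries. Spry2 (ENSMUSG00000022114) lies on chromosome 14 from 105891947 to 105896819, and no other annotated gene overlaps it.

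Spry4 (ENSMUSG00000024427), which blocks growth factor signaling to ERK, had 194, 333 and 146 normalized counts in shYthdf2 and 398, 335 and 415 in shCtrl. The replicate 2 libraries were level, at a log2 difference of -0.01, and the separation of the groups rested on that small gap: with scaling by library size alone the groups overlapped. Mean levels were 224 ± 96.9 (SD, n = 3) and 383 ± 42.1 (SD, n = 3), and the log2 fold change was -0.77 (SE 0.29, adjusted p = 0.202 in edgeR's test). Without shYthdf2 replicate 2 it was -1.17 (adjusted p = 0.0353). The adjusted p was 0.117 without shCtrl replicate 2 and 0.455 to 0.505 without any one of the other libraries.

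Which members passed depended on the libraries in the fit. Without shCtrl replicate 2, Dusp1, Dusp4, Dusp5 and Spry2 passed the adjusted threshold in edgeR's test, 4 of 10 members, where 8.84% of all genes were called lower. Without shYthdf2 replicate 2, Dusp4, Dusp5, Dusp8 and Spry4 passed, again 4 of 10, against 2.82%. Without both replicate 2 libraries all 10 members passed, 9 lower and Dusp2 higher, but 27.0% of all genes were then called lower and 9186 of 17422 were called in all, from pairs of libraries that differed little from each other. Without any one of the other libraries 0 genes of the whole table passed in edgeR's test, and 4 or 5 members were lower at an unadjusted p under 0.05, where 5.89% to 6.42% of all genes were.

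To compare levels between genes, counts were divided by exon length in kb and scaled to library size, as RPKM values are. In shCtrl, Dusp5 was highest at 121 ± 22.5 (SD, n = 3), followed by Dusp8 at 80.4 ± 2.78, Dusp4 at 56.4 ± 18.5 and Dusp1 at 46.8 ± 14.3. Spry2 at 14.3 ± 3.17, Dusp10 at 14.2 ± 0.719, Dusp14 at 10.5 ± 0.153 and Dusp6 at 8.14 ± 0.227 formed a middle range, with Spry4 at 4.26 ± 0.468 and Dusp2 at 0.705 ± 0.455 below it. Neighbors in this order whose shCtrl libraries overlapped were Dusp4 with Dusp1 and Spry2 with Dusp10. In shYthdf2 the level of Dusp5 was 45.7 ± 14.96 (SD, n = 3) and that of Dusp8 was 63.1 ± 6.58, but the libraries overlapped, since Dusp5 in replicate 2 (63.0) lay above Dusp8 in replicates 1 (59.7) and 4 (58.9).

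**Figure D3:**
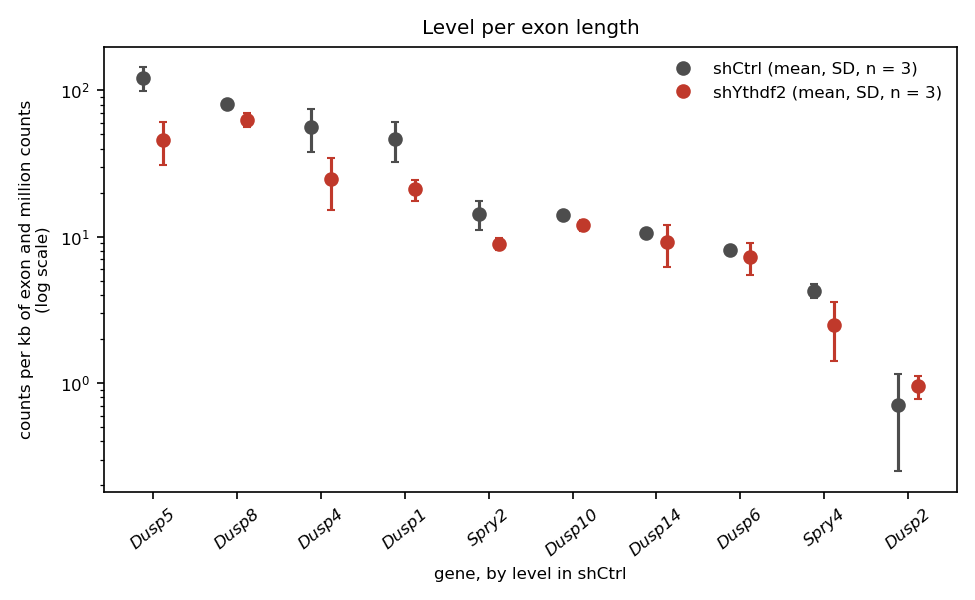
Level of each gene in counts per kb of exon, scaled to library size (log scale), as the mean of 3 libraries with SD, in shCtrl (grey) and shYthdf2 (red). Dusp5 is first in shCtrl at 121, and in shYthdf2 its mean of 45.7 is under that of Dusp8, with overlapping libraries.

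The 3' untranslated regions were taken from 1 GENCODE transcript a gene and searched for GGACT, a common form of the m6A consensus, and for AU-rich motifs known from unstable mRNAs. GGACT stood in 8 of the 10 members, all but Dusp2 and Dusp14, with 2 copies in Dusp5 and in Spry4 and 1 in the others, while 59.8% of 13653 genes tested held it. ATTTA stood in 9 of the 10, all but Dusp14, against 66.6%. The nonamer TTATTTATT, which contains ATTTA, stood in Dusp1 with 2 copies and in Dusp8 with 1, against 7.68% of genes. Longer regions hold more copies, and the members ranged from 576 bases in Dusp14 to 3559 in Spry4 (median of all genes 1003). Whether these sites carry m6A was not measured here. The nonamers are shown in capitals within 25 bases of sequence, because Dusp1 is the member with the most of them.
Dusp1, first copy: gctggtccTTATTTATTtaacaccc
Dusp1, second copy: ttttacctTTATTTATTtttgtgta
Dusp8: tcgattttTTATTTATTtaagctag

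The lists around the members were read from the same fit. Over all genes, 10.6% were lower and 9.50% higher at an unadjusted p under 0.05 in it. In the Ras-ERK cascade, 20 genes were tested, 4 lower and 2 higher at an unadjusted p under 0.05 and 0 past the adjusted threshold, with a median log2 fold change of -0.04. Its extremes were Rasgrf2, a calcium-responsive activator of Ras, at -2.68 (adjusted p = 0.0585, 8.24 ± 2.39 against 53.4 ± 26.1 normalized counts, SD, n = 3), and Rasgrp1 at 0.58 (adjusted p = 0.558). Of 13 genes of the JNK, p38 and ERK5 cascades, 4 were lower and 2 higher at that level, with a median of -0.14 and values from -0.78 for Mapk11 (adjusted p = 0.305) to 1.22 for Mapk13 (adjusted p = 0.447). All adjusted p-values here are from edgeR's test over all genes.

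Phosphatases and inhibitors outside the 10 members had medians near 0. Dusp7 and Dusp16, the other classical phosphatases tested, had log2 fold changes of -0.0040 (adjusted p = 0.994) and 0.04 (adjusted p = 0.886), and Dusp9 did not pass the filter. Of the 14 atypical phosphatases listed, 11 were tested, 3 lower and 2 higher at an unadjusted p under 0.05, with a median of 0.01, from -0.78 for Dusp3 (adjusted p = 0.0904) to 0.55 for Styx (adjusted p = 0.291). Of the other Sprouty, Spred and receptor-level inhibitors, 7 were tested, 2 lower and 1 higher, from -0.83 for Spred3 (adjusted p = 0.189) to 0.51 for Spry1 (adjusted p = 0.241), with a median of -0.01. Spry1 thus had a positive value where Spry2 and Spry4 had negative ones, each short of the adjusted threshold in edgeR's test.

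Lists of genes that ERK and neuronal activity induce had negative medians. Of 11 ERK output genes outside the family, 5 were lower and 1 higher at an unadjusted p under 0.05, with a median of -0.29, and 1 passed the adjusted threshold, Ier2, an immediate-early gene, at -1.48 (adjusted p = 0.0496 in edgeR's test) with 514 ± 53.4 against 1431 ± 423 normalized counts (SD, n = 3). The largest positive value was that of Epha4 at 0.79 (adjusted p = 0.0976). Among AP-1 factors, 7 of 9 tested were lower at an unadjusted p under 0.05, with a median of -1.42, and Fosl2 passed at -2.51 (adjusted p = 0.0447). The extremes were Fosb at -4.37 (adjusted p = 0.122) and Batf at 0.07 (adjusted p = 0.959). Fosb had 46.9 ± 32.2 against 963 ± 803 normalized counts (SD, n = 3), and the groups overlapped. Among Egr and Nr4a factors, 5 of 6 tested were lower at an unadjusted p under 0.05, 0 had a positive value, with a median of -2.24, and Nr4a3 passed at -3.44 (adjusted p = 0.0430). Ier2, Fosl2 and Nr4a3 no longer passed when any one library of replicate 1 or 4 was left out, where 0 genes of the whole table did. The median of the Dusp and Sprouty members, -0.52, lay between that of the cascade genes and those of the transcription factors, and differences between lists were not tested.

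**Figure D4:**
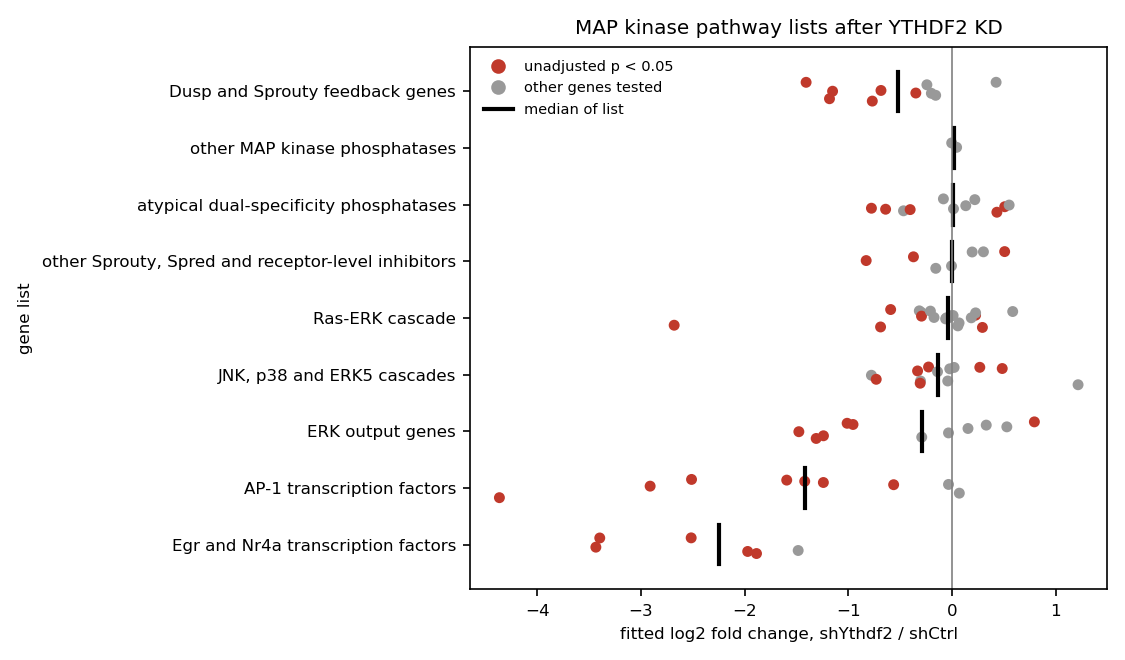
Fitted log2 fold change (shYthdf2 over shCtrl) of each tested gene in 9 lists, red where the unadjusted p is under 0.05, with a black bar at the median of each list. The Dusp and Sprouty feedback genes have a median of -0.52, the Ras-ERK cascade -0.04 and the Egr and Nr4a factors -2.24.

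For each member, the gene with the most similar profile over the 6 libraries was found by the root mean square difference of centered log2 normalized counts. For Dusp5 this was Etv5, an ETS factor also induced by ERK, at 0.118, and for Dusp4 it was Epb41l4a at 0.104. Dusp4 and Dusp5 were also closest to each other among the members, at 0.203. The closest genes were Pom121 for Dusp1 (0.0965), 4930466K18Rik for Dusp2 (0.0958), Kctd8 for Dusp6 (0.0438), Prr13 for Dusp8 (0.0256), Sae1 for Dusp10 (0.0247), Kif26b for Dusp14 (0.0456), Sars2 for Spry2 (0.0187) and Ak4 for Spry4 (0.130). Dusp6 with Dusp14, at 0.0728, and Dusp8 with Dusp10, at 0.0591, were the other member pairs that were mutually closest. Genes outside the members were nearer still in each of these pairs, 22 to Dusp4 and 15 to Dusp5, 25 to Dusp6 and 9 to Dusp14, and 93 to Dusp8 and 144 to Dusp10. The other members lay further from their closest member. Of 12542 candidate genes, 276 were nearer to Dusp1, 316 to Spry4, 1640 to Spry2 and 6691 to Dusp2.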

How the data were processed

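Total RNA of the infected GCs was sequenced by the study. Per its methods, the authors filtered the reads, used HISAT and TopHat2 for mapping to GRCm38 and HTSeq for counting, and the deposited counts are whole numbers without normalization, 1 column for each of 6 libraries. The submitters' processing notes instead name Bowtie 0.12.2 and mm9, and the gene identifiers were matched here to GENCODE M21 (GRCm38), with a symbol for 52403 of 53421 genes. Of the rest, 785 are outside that annotation.

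Groups were taken from the library names. Counts were tested with edgeR 4.0.16 (R 4.3.3) by the quasi-likelihood test over the groups, after filterByExpr (minimum count 10, minimum total 15), which kept 17214 genes and 99.8% of counts, with TMM normalization and Benjamini-Hochberg adjustment over all genes tested. Normalized counts are TMM counts at a common library size, and intervals are 95%. Single genes were also compared by an exact permutation test over the 6 libraries, two-sided, with a smallest p of 0.1. Same-numbered libraries deviated together (correlation of deviations from the group means 0.252, 0.360 and 0.321 for replicates 1, 2 and 4), so the number was also fitted as a block. These correlations cannot show that libraries 1 or 4 are true pairs. Replicate 2 stood apart in both groups, and a shift of replicate 2 alone moves the other deviations together. Libraries of replicates 1 and 4 were not compared with each other across the groups. Alternatives tried were scaling by RLE or by library size alone, DESeq2 1.42.0, limma-voom (limma 3.58.1), 2 other filters, the block, each library left out, and both replicate 2 libraries left out. The fits were also run on simulated counts with known changes. Those counts were drawn independently for each library, without a shift of replicate 2, so they cannot show how the fits handle that shift.

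Low counts limit the precision for Dusp2, and for the other members the spread between libraries does not follow the count. Since no source used here says which cultures the replicates came from, p-values measure the spread between these samples, which may be technical. The members, the lists and the tests were chosen with earlier results of these data known. Besides the members and the Ythdf genes, the genes named were those of each pathway list past the adjusted threshold, its largest positive and negative fold change, and the gene with the closest profile to each member (mean of at least 50 normalized counts). Ergic1 and the markers Eomes, Calb2, Slc1a2 and Aqp4 were named after their values were seen.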

Additional observations from a re-analysis of the deposited data

How the results depend on the processing

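Over the 14 alternatives, the log2 fold changes of the 10 members kept their sign in all 140 values, and 26 of these passed the adjusted threshold where the reported fit had none. The number of members past it was 4 with DESeq2 (8.50% of all genes passed), 3 with no filter (1.98% of 32277 genes, low counts included) and 1 with the replicate block (1.35%). It was 10 without both replicate 2 libraries (52.7%) and 0 to 4 with 1 library left out (0% to 18.3%). With the other alternatives it was 0 (0.139% to 0.862%). At an unadjusted p under 0.05 there were 10 members without both replicate 2 libraries, where 57.6% of all genes were at that level. The number of members whose groups did not overlap was 5 with no filter (8.71% of all genes lower without overlap) and with scaling by library size alone (10.9%). It was 7 without shCtrl replicate 2 (26.7%), and 9 without shYthdf2 replicate 2 (24.7%) and without both replicate 2 libraries (38.2%), where fewer libraries are left to overlap. In the other alternatives that change the scaling, the filter or the libraries it was 6 (13.4% to 15.3%). Over all genes, 1321 passed with DESeq2, 24 with limma-voom, 639 with no filter, 232 with the replicate block, 9186 without both replicate 2 libraries and 0 to 3239 with 1 library left out. The replicate block changed the call of no member other than Dusp1. Ythdf2 passed with DESeq2 (log2 fold change -0.58, adjusted p = 0.0406) and without both replicate 2 libraries (-0.32, adjusted p = 0.00124). Where a call changed with replicate 2, the cause was not tested. Dusp2, with 13 to 48 counts in a library, is the member whose precision depth limits most.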
